A study of Mus musculus with 18 samples.

Results

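The expression of 10 immediate early genes, *Fos*, *Fosb*, *Fosl2*, *Jun*, *Junb*, *Egr1*, *Egr2*, *Nr4a1*, *Ier2* and *Atf3*, was followed in RNA-seq libraries of the mouse retinal pigment epithelium (RPE), the pigmented cell layer behind the retina. They were selected by symbol from the 52636 genes of the count table, and all 10 were found and passed the filter on low counts in every comparison. The genes were chosen with their levels in these libraries known, so their values are given as a description, with no *P*-value of a single member. Counts of members past a test in the main fits are given beside the share of all genes. In alternative fits and with a library left out that share is not always given. None of these counts supports anything.

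Immediate early genes are transcribed within minutes of a stimulus without the need for new protein. Growth factors, calcium entry, light and mechanical or chemical stress switch them on through kinases such as ERK, JNK and p38 and through transcription factors such as SRF, the ETS partners of SRF and CREB that are already bound at their promoters. Most of them encode short-lived transcription factors, and enzymatic dissociation of a tissue is itself a known stimulus for them. Changes of *Egr1* in the retina and the RPE have long been followed in work on eye growth.

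The study asked which genes of the RPE change when the eye is enlarged by nSREBP2, the active nuclear form of the lipid regulator SREBP2, or by knockdown of the endocytic receptor gene *Lrp2*. The series held 18 libraries from C57BL/6 mice in 6 groups of 3: uninjected, GFP, nSREBP2, ctrl sh (a hairpin named Laczsh in the labels), *Lrp2* sh1 and *Lrp2* sh2. The last 5 received an adeno-associated virus of serotype AAV8 in which the *Best1* promoter, active in the RPE, drove the named gene or hairpin, with GFP as the control of nSREBP2 and ctrl sh as that of both *Lrp2* hairpins. The virus was injected under the retina on postnatal day 0 at 1e+09 vector genomes per eye, and all eyes, including the uninjected, were collected on postnatal day 14. Both eyes of a mouse were pooled into its library. Retina and optic nerve were discarded, and the cells were loosened from the sclera by papain, spun down and lysed, so all 6 groups passed through the same kind of dissociation. No group without dissociation, no record of the time from death to lysis and no order of handling are given in the sources used here, so a response of these genes to the preparation was not tested. The labels number the libraries, with all uninjected and nSREBP2 libraries numbered before those of the other groups. Whether these numbers follow the order of handling is not given. Nor was a sham injection among the groups, so the injection itself and the virus cannot be told apart.

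Between 8921885 and 13696934 reads per library were counted on genes. *Lrp2* was reduced as labelled, from 118 ± 42.8 CPM (SD, n = 3) with ctrl sh to 36.9 ± 6.65 (SD, n = 3) with *Lrp2* sh1 and 38.7 ± 4.73 (SD, n = 3) with *Lrp2* sh2, and *Srebf2* was raised from 101 ± 15.9 (SD, n = 3) with GFP to 217 ± 15.9 (SD, n = 3) with nSREBP2. CPM are counts per 1000000 counts of a library after TMM scaling. The tissue label was checked with 8 RPE markers (*Rpe65*, *Rlbp1*, *Best1*, *Ttr*, *Lrat*, *Rdh5*, *Rgr*, *Otx2*). None was at 0 in any library, but their levels differed widely. *Rpe65*, the isomerase of the visual cycle, had 371 to 1115 CPM in the uninjected libraries, 1.06 to 2.29 CPM with GFP, 2.44 to 3.76 CPM with nSREBP2, 1.77 to 97.8 CPM with ctrl sh, 3.56 to 44.1 CPM with *Lrp2* sh1 and 3.51 to 15.7 CPM with *Lrp2* sh2. *Best1* itself was low in every group and highest with nSREBP2, at 7.95 to 10.2 CPM against 4.31 to 6.87 CPM in uninjected libraries. Collagen and other fibroblast genes were abundant in all libraries, so the immediate early transcripts cannot be assigned to the RPE. In bulk RNA, fewer cells of a type and less RNA per cell cannot be told apart.

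The promoters of 8 of the 10 genes were matched in RefSeq (GRCm38.p6). *Egr1* and *Ier2* had no entry. The 250 bases upstream of the start were searched on both strands for short elements through which immediate early genes are known to be induced. The core of the cyclic AMP response element, TGACGT, to which CREB and ATF proteins bind, was present upstream of *Fos*, *Atf3* and *Egr2*, in 3 of the 8 genes, and in 7.29% of the 27025 genes with a promoter in the table. The CArG box, to which SRF binds, was present upstream of *Egr2* only, and in 1.62% of all genes. The 3 sequences are shown because they hold these elements close to the start. They are written 5′ to 3′ along the gene, ending 1 base before the start, with the cyclic AMP response element core (or its reverse complement), the CArG box and the TATA element TATAAA in capitals. None of these matches overlapped another.
*Fos*, chr12:85473640-85473889, plus strand: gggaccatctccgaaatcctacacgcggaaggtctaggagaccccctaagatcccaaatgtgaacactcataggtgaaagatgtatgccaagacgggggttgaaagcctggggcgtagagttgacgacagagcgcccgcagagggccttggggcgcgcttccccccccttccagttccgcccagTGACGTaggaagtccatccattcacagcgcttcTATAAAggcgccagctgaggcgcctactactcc
*Egr2*, chr10:67537619-67537868, plus strand: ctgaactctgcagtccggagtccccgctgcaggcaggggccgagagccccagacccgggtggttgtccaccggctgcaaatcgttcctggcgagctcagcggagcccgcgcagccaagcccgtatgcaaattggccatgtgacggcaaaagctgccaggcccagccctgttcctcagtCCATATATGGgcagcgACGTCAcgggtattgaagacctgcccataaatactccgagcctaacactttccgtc
*Atf3*, chr1:191183334-191183583, minus strand: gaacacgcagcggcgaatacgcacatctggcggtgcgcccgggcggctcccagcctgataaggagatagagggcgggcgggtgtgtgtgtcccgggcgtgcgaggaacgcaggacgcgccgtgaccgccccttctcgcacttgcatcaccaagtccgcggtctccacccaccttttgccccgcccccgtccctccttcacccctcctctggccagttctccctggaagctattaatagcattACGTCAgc

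The core in *Fos* lay at −66 to −61 from the start and its TATA element at −33 to −28. In *Egr2*, which has several starts in the table, the CArG box lay at −72 to −63 and the core at −56 to −51 from the start shown. In *Atf3* the core lay at −8 to −3. An EGR element, GCGNGGGCG, to which the EGR proteins bind, was found upstream of *Fosb*, *Fosl2* and *Nr4a1* and in 5.33% of all genes, and an E-box, CACGTG, upstream of another start of *Egr2* and in 6.86% of all genes. The AP-1 element TGANTCA, bound by dimers of FOS and JUN, had no match in these windows of the 8 genes (7.82% of all genes). The TATA element was present in 14.3% of all genes. These matches are letters in a window and not evidence of binding.

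The highest levels of the 10 genes were in the uninjected libraries. For 8 of them, all 3 uninjected libraries were above all 15 injected libraries, an arrangement that 3.55% of the 17347 genes with a mean of at least 1 CPM showed. The exceptions were *Fosb*, for which ctrl sh replicate 3 with 850.04 CPM was above uninjected replicate 3 with 824 CPM, and *Egr2*, for which GFP replicate 3 with 51.5 CPM was above uninjected replicate 2 with 48.8 CPM. The mean of the uninjected libraries was 1.46 (*Jun*) to 2.65 (*Nr4a1*) times the mean of the injected libraries. The sum over the 10 genes was 6350.3 to 7983 CPM in uninjected libraries and 2559 (GFP replicate 1) to 4907 CPM (GFP replicate 3) in injected libraries. The pattern was one of degree, because no injected group lost expression of any of the genes.

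**Figure D1:**
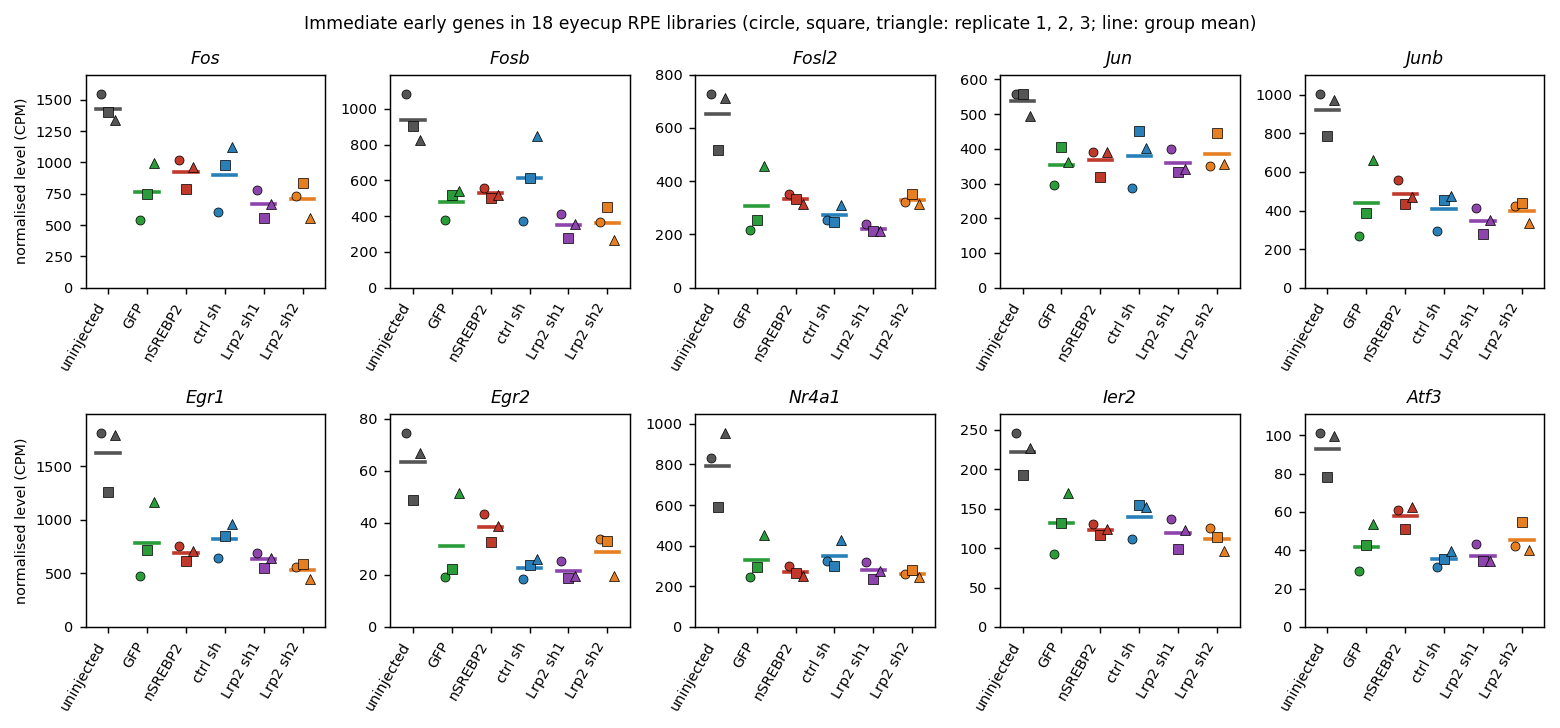
Level in CPM (vertical axes, linear from 0) of the 10 immediate early genes in the 6 groups (horizontal axes). Each symbol is a library (circle, square and triangle for replicates 1, 2 and 3) and each line the mean of 3 libraries. The uninjected libraries are highest for 8 genes, and for *Fosb* and *Egr2* a single injected library reaches into their range.

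The FOS proteins pair with JUN proteins to form the transcription factor AP-1. *Fos* (ENSMUSG00000021250.13, chromosome 12 from 85473890 to 85477273, plus strand) had 1547, 1405 and 1335 CPM in uninjected replicates 1 to 3. It had 539, 746 and 996 CPM with GFP and 1023, 791 and 965 CPM with nSREBP2. With ctrl sh it had 602, 982 and 1120.3 CPM, with *Lrp2* sh1 782, 555 and 671 CPM, and with *Lrp2* sh2 734, 834 and 557 CPM. All injected groups lay below the uninjected group, and they overlapped with each other except that the nSREBP2 libraries were all above the *Lrp2* sh1 libraries. *Fosb* (ENSMUSG00000003545.3, chromosome 7 from 19302696 to 19310051, minus strand), a close relative with long-lived splice forms in neurons, had 1084, 905 and 824 CPM in uninjected libraries and 373, 615 and 850.04 CPM with ctrl sh. It had 377 to 542 CPM with GFP, 503 to 559.6 CPM with nSREBP2, 281 to 412 CPM with *Lrp2* sh1 and 269 to 449 CPM with *Lrp2* sh2. For *Fosb*, the ctrl sh libraries spread more than those of any other group.

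*Fosl2* (ENSMUSG00000029135.10, chromosome 5 from 32135801 to 32157842, plus strand), which encodes FRA2, a FOS protein with a more sustained expression, had 728, 518 and 712 CPM in uninjected libraries. It had 215, 253 and 456 CPM with GFP and 351, 333 and 313 CPM with nSREBP2. With ctrl sh it had 255, 248 and 311 CPM, with *Lrp2* sh1 239, 213 and 212 CPM, and with *Lrp2* sh2 321, 350.5 and 316 CPM. *Fosl2* was the gene in which the 2 *Lrp2* hairpins were apart: the lowest *Lrp2* sh2 library was above the highest *Lrp2* sh1 library. The *Lrp2* sh1 libraries were also below, and the *Lrp2* sh2 libraries above, all ctrl sh libraries.

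*Jun* and *Junb* encode the partners of the FOS proteins, and JUNB is a weaker activator that can oppose JUN. *Jun* (ENSMUSG00000052684.4, chromosome 4 from 95049034 to 95052222, minus strand) had 558, 558 and 496 CPM in uninjected libraries and 287 (ctrl sh replicate 1) to 452 CPM (ctrl sh replicate 2) in injected libraries. It differed least between uninjected and injected libraries among the 10. *Junb* (ENSMUSG00000052837.6, chromosome 8 from 84974484 to 84978718, minus strand) had 1005, 789 and 975 CPM in uninjected libraries and 268 (GFP replicate 1) to 663 CPM (GFP replicate 3) in injected libraries. The exons of *Jun* share 232 bases with the antisense transcript *Junos*, and those of *Junb* share 173 bases with *Prdx2* on the other strand. The use of strand in counting is not given in the sources used here, so these 2 counts are uncertain to that extent. The exons of the other 8 genes overlapped those of no other gene in GENCODE M21.

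EGR1 and EGR2 are zinc finger transcription factors that bind the same element. *Egr1* (ENSMUSG00000038418.7, chromosome 18 from 34859823 to 34864984, plus strand) had 1806, 1262 and 1788 CPM in uninjected libraries. It had 478, 715 and 1162 CPM with GFP and 757, 616 and 710.4 CPM with nSREBP2. With ctrl sh it had 640.5, 851 and 958 CPM, with *Lrp2* sh1 691, 553 and 647 CPM, and with *Lrp2* sh2 560.1, 588 and 448 CPM. The spread within GFP was the widest, with replicate 3 close to the lowest uninjected library and replicate 1 near the lowest level of all, and the *Lrp2* sh2 libraries lay below all ctrl sh libraries. The order of the group means was uninjected, ctrl sh, GFP, nSREBP2, *Lrp2* sh1 and *Lrp2* sh2, and each pair of neighbours after uninjected overlapped. *Egr2* (ENSMUSG00000037868.15, chromosome 10 from 67535475 to 67542188, plus strand), which is best known for myelination by Schwann cells, was low: 74.5, 48.8 and 66.7 CPM in uninjected libraries, and 19.2, 22.2 and 51.5 CPM with GFP. It had 32.5 to 43.4 CPM with nSREBP2, 18.4 to 26.1 CPM with ctrl sh, 21.4 ± 3.61 CPM (SD, n = 3) with *Lrp2* sh1 and 19.8 to 34.0 CPM with *Lrp2* sh2. Its nSREBP2 libraries therefore lay above all ctrl sh and *Lrp2* sh1 libraries but inside the range of GFP.

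*Nr4a1* (ENSMUSG00000023034.6, chromosome 15 from 101254269 to 101274795, plus strand) encodes NUR77, an orphan nuclear receptor. It had 834, 592 and 954 CPM in uninjected libraries, 247, 296 and 452 CPM with GFP, and 300.5, 265 and 253 CPM with nSREBP2. It had 325, 299 and 427 CPM with ctrl sh, 320.2, 238 and 276 CPM with *Lrp2* sh1, and 259.9, 280.2 and 245 CPM with *Lrp2* sh2. Its uninjected mean was the farthest above the injected mean among the 10 genes, and its *Lrp2* sh2 libraries were all below the ctrl sh libraries. *Ier2* (ENSMUSG00000053560.4, chromosome 8 from 84661331 to 84662852, minus strand), an intronless gene of a nuclear protein, had 246, 193 and 227 CPM in uninjected libraries and 92.6 (GFP replicate 1) to 169.7 CPM (GFP replicate 3) in injected libraries. *Atf3* (ENSMUSG00000026628.13, chromosome 1 from 191170296 to 191218039, minus strand), a stress-induced member of the CREB and ATF family, had 101, 78.1 and 99.8 CPM in uninjected libraries and 29.4, 42.9 and 53.6 CPM with GFP. It had 50.9 to 62.5 CPM with nSREBP2, 31.4 to 39.7 CPM with ctrl sh, 34.2 to 43.1 CPM with *Lrp2* sh1 and 40.1 to 54.6 CPM with *Lrp2* sh2. The highest injected *Atf3* level was that of nSREBP2 replicate 3, whereas for *Fosl2*, *Junb*, *Egr1*, *Egr2*, *Nr4a1* and *Ier2* it was that of GFP replicate 3.

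Levels were compared between genes per kilobase of exon. In the uninjected libraries the mean level was 608 ± 46.0 CPM per kilobase for *Fos* (SD, n = 3), 401 ± 50.8 for *Junb* (SD, n = 3), 361 ± 68.9 for *Egr1* (SD, n = 3) and 226 ± 52.5 for *Nr4a1* (SD, n = 3). *Jun*, *Fosb* and *Ier2* followed at 168, 150.2 and 146 CPM per kilobase, and *Fosl2*, *Atf3* and *Egr2* were lowest at 67.4, 43.2 and 18.6 CPM per kilobase. *Fos* was also highest per kilobase in each injected group, at 285 with *Lrp2* sh1 to 394 with nSREBP2.

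Within a group, the 10 genes moved together between libraries of mice that had the same treatment. GFP replicate 3 was the highest GFP library for 9 of the 10 genes and GFP replicate 1 the lowest for all 10, against 35.2% and 36.0% of all genes. *Lrp2* sh1 replicate 1 was the highest of its group for all 10 genes and *Lrp2* sh2 replicate 3 the lowest of its group for 9. With ctrl sh, replicate 1 was lowest and replicate 3 highest for 8 genes each. In the uninjected group, replicate 1 was highest for 8 genes and replicate 2 lowest for 7. The share of all genes is given for GFP only, so the counts of the other groups are a description. The median of the 10 genes, on the log2 scale and relative to the uninjected mean, was −1.62 in GFP replicate 1 and −0.52 in GFP replicate 3, so that both the lowest and the highest of the 15 injected libraries were in this group. In nSREBP2 it ran from −0.94 to −0.74, the narrowest of the injected groups.

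**Figure D2:**
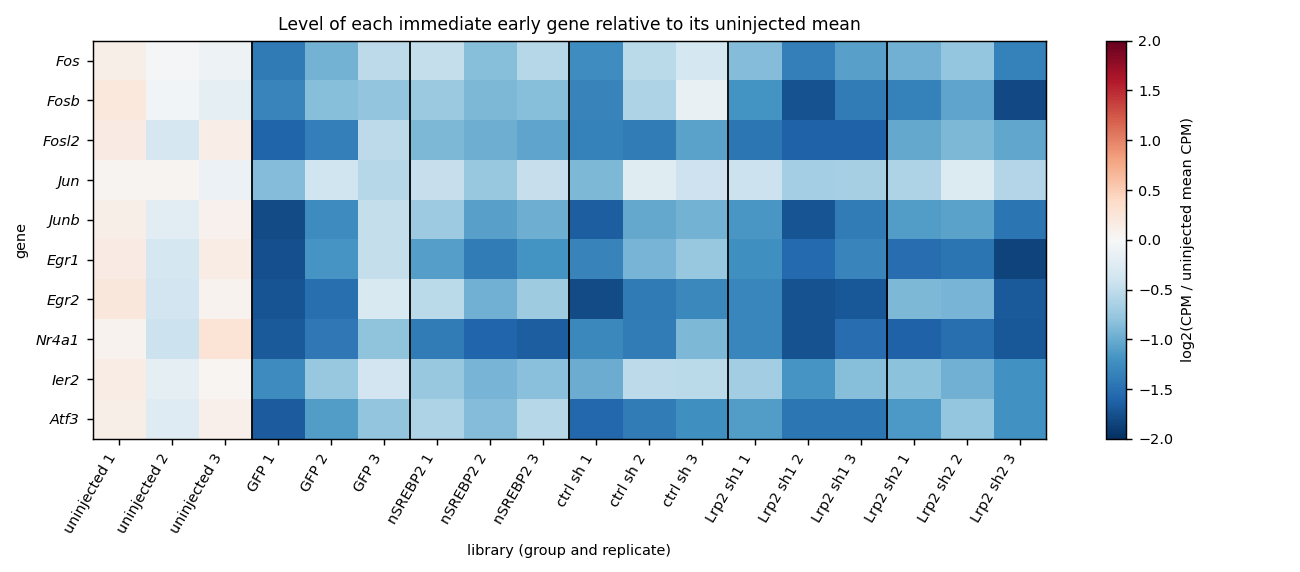
Log2 ratio of each CPM level to the mean of the 3 uninjected libraries (colour) for the 10 immediate early genes (rows) in the 18 libraries (columns, in groups divided by lines). Injected libraries are blue, and whole columns are paler or darker, as in GFP replicate 3 (median −0.52) against GFP replicate 1 (median −1.62).

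The genes whose pattern was most like that of *Egr1* were found by Pearson's *r* of log2(CPM + 0.5) over the 18 libraries, among 17346 other genes. These were *Ier2* (*r* = 0.98, Spearman's rho 0.94), *Dusp1* (0.97, 0.91), *Ppp1r15a* (0.97, 0.91), *Nr4a1* (0.95, 0.88), *Zfp36* (0.95, 0.92) and *Pim3* (0.95, 0.89). *Dusp1* encodes a phosphatase of MAP kinases, *Ppp1r15a* a regulatory subunit that restores translation after stress, *Zfp36* an RNA-binding protein that destabilizes AU-rich transcripts, and *Pim3* a kinase. *Dusp1* had 519 ± 42.2 CPM (SD, n = 3) in uninjected libraries and group means of 275 to 350 CPM in injected libraries, and *Ppp1r15a* had 371 ± 65.2 CPM (SD, n = 3) and 121 to 180 CPM. The distance between uninjected and injected libraries is part of these values, and when each value was taken relative to its group mean the closest genes were *Junb* (*r* = 0.97, rho 0.90), *Mcl1* (0.97, 0.93), *Ppp1r15a* (0.96, 0.93), *Btg2* (0.96, 0.94), *Sertad1* (0.95, 0.93) and *Gadd45b* (0.95, 0.91). By *r*, *Jun* was the member least like *Egr1* over the 18 libraries and relative to group means (0.76 and 0.54). By rho it was the least like *Egr1* relative to group means (0.42) only. Over the 18 libraries *Fosl2* had the lowest rho (0.55), and *Jun* had 0.74. These values describe 18 libraries that share treatments, depth and preparation, and are no test.

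The other immediate early genes, 32 genes such as *Egr3*, *Nr4a3*, *Dusp1*, *Myc*, *Klf2* and *Ptgs2*, were described in the same way. For 14 of them (43.8%) all uninjected libraries were above all injected ones. For 29 of the 32, GFP replicate 3 was the highest of its group, and for 28 GFP replicate 1 was the lowest. Their summed level was 5061 to 6183 CPM in uninjected libraries and 2889 to 4580.5 CPM in injected libraries. The 12 heat shock genes, which encode chaperones and their partners, had a summed level of 2351 to 2846 CPM in uninjected libraries and 2090.4 to 3052 CPM in injected libraries, so the 2 ranges overlapped. *Hspa8* and *Hsp90ab1* contributed most, with 840 and 692 CPM of a mean sum of 2607 CPM in uninjected libraries. For 1 of the 12 (8.33%), *Dnajb1*, all uninjected libraries were above all injected ones. Summed ranges also overlapped for 20 upstream regulators and partners of the immediate early genes, such as *Srf*, *Elk1*, *Creb1* and the MAP kinase genes, of which none had its uninjected libraries above all injected ones.

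The effect of the control vectors was examined in GFP versus uninjected and ctrl sh versus uninjected, which share the uninjected libraries. In both, the fitted log2FC of all 10 genes was negative. With GFP it ranged from −1.28 (*Nr4a1*, SE 0.24) to −0.62 (*Jun*, SE 0.12), with a median of −1.06 beside 0.00 for all genes tested, and with ctrl sh from −1.51 (*Egr2*, SE 0.18) to −0.52 (*Jun*, SE 0.16), with a median of −1.10. A gene passed the test when its adjusted *P* in edgeR's quasi-likelihood test was under 0.05. With GFP, 5 genes passed and were lower (*Fos*, *Fosb*, *Jun*, *Nr4a1* and *Atf3*), against 1.82% of all genes that were lower and 2.48% in both directions. With ctrl sh, 7 passed and were lower (*Fosl2*, *Junb*, *Egr1*, *Egr2*, *Nr4a1*, *Ier2* and *Atf3*), against 3.37% of all genes that were lower and 6.49% in both directions. At the threshold of the study, which adds an absolute log2FC above 1, the counts were 2 (1.19% of all genes, lower) and 6 (1.51%). For 9 of the 10 genes in either comparison the groups did not overlap and the vector was lower, against 11.4% of all genes with GFP and 13.6% with ctrl sh. *Nr4a1* and *Atf3* passed in both. *Egr1*, with a log2FC of −1.07 (SE 0.29) with GFP and −1.01 (SE 0.19) with ctrl sh, differed little between them in size but passed with ctrl sh only, and the difference between the 2 vectors was not tested. These counts depended on single libraries. Without GFP replicate 3, 9 genes passed with GFP, without uninjected replicate 2, 2 passed, without GFP replicate 1 or uninjected replicate 3, 1 passed, and without GFP replicate 2, none passed the edgeR test, although every log2FC stayed negative. In that last fit 0.359% of all genes passed, and at an unadjusted *P* under 0.05 it counted all 10 genes and 12.9% of all genes. Without ctrl sh replicate 2, 3 passed with ctrl sh. Of all genes, 0.601% passed without GFP replicate 1 and 0.632% without uninjected replicate 3. The share is not given for the fits without GFP replicate 3, uninjected replicate 2 or ctrl sh replicate 2. Uninjected replicate 3 had Y-linked transcripts, which the other uninjected libraries and all GFP and ctrl sh libraries lacked.

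**Figure D3:**
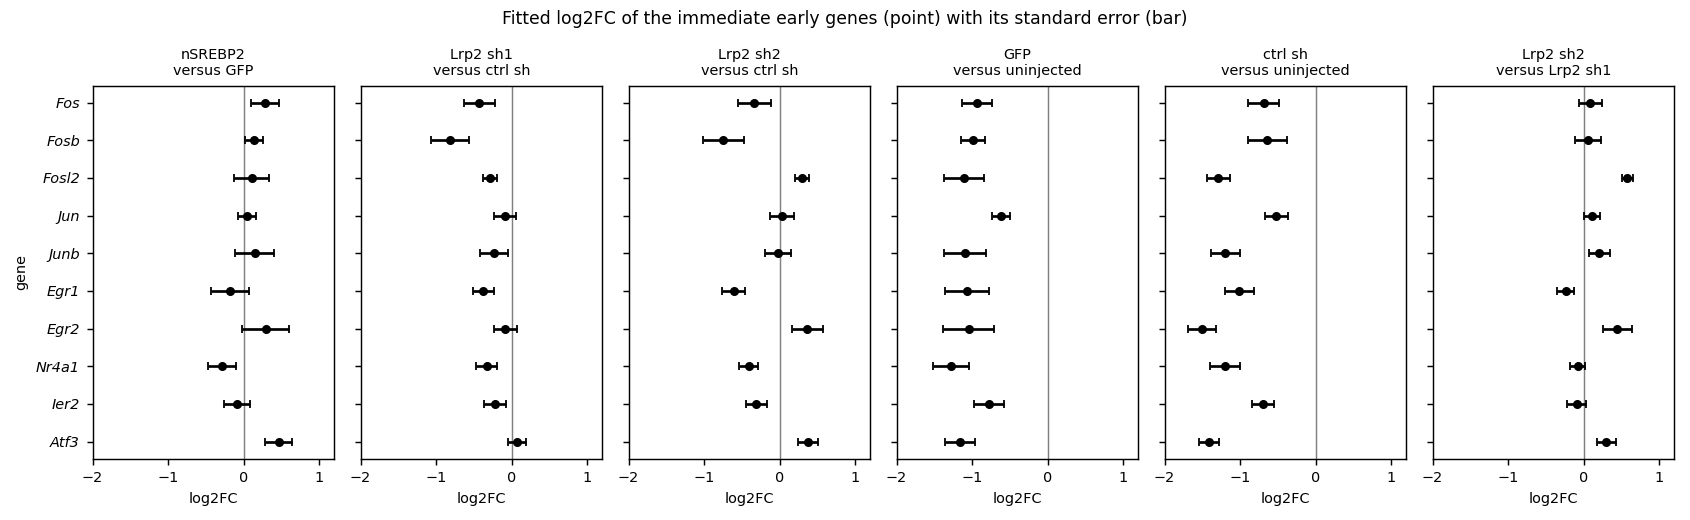
Fitted log2FC (horizontal axes) of the 10 immediate early genes (vertical axis) in the 6 comparisons, as a point with its standard error as a bar. All 10 points are below 0 in both comparisons of a control vector with uninjected eyes, from −1.51 to −0.52, and lie between −0.81 and 0.58 in the other 4 comparisons.

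The other immediate early genes were also listed with earlier results of these data known. Their values and adjusted *P*-values are therefore a description and no independent support for those of the 10 genes. Of 30 genes tested, 6 fell with GFP and 19 with ctrl sh, beside 1.82% and 3.37% of all genes that were lower. None rose, and the median log2FCs were −0.78 and −0.73. The largest falls with GFP were those of the nuclear receptor gene *Nr4a3* (log2FC −1.41, SE 0.30, adjusted *P* = 0.0458, edgeR), the kinase gene *Plk3* (−1.15, SE 0.22, adjusted *P* = 0.0363), *Btg2* (−1.10, SE 0.22, adjusted *P* = 0.0377) and *Egr3* (−1.06, SE 0.22, adjusted *P* = 0.0457). *Trib1* and *Klf4* also fell. With ctrl sh they were those of *Nr4a3* (−1.35, SE 0.23, adjusted *P* = 0.0156), *Csrnp1* (−1.28, SE 0.17, adjusted *P* = 0.00727), *Gadd45b* (−1.27, SE 0.22, adjusted *P* = 0.0169) and the neuronal gene *Arc* (−1.24, SE 0.17, adjusted *P* = 0.00902), followed by *Nr4a2* and *Egr3*. Without GFP replicate 3, 18 of these genes fell with GFP, in a fit whose share of all genes is not given. Without GFP replicate 1, GFP replicate 2 or uninjected replicate 3 none passed in edgeR (19, 17 and 20 with an unadjusted *P* under 0.05, and 0.601%, 0.359% and 0.632% of all genes past the test), and without ctrl sh replicate 2 only 2 fell with ctrl sh.

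Of 13 targets of ERK that feed back on it (DUSP phosphatases, Sprouty and SPRED inhibitors and ETS factors), 2 fell with GFP, *Dusp4* (log2FC −1.51, SE 0.23, adjusted *P* = 0.0145, edgeR) and *Dusp5* (−1.15, SE 0.24, adjusted *P* = 0.0441), and 2 with ctrl sh, *Dusp5* (−1.39, SE 0.21, adjusted *P* = 0.012) and *Spry2* (−0.51, SE 0.10, adjusted *P* = 0.0268). None of the 13 rose. Of the 20 upstream regulators and partners, none passed with GFP (3 had an unadjusted *P* under 0.05), and with ctrl sh *Crem*, a cyclic AMP-responsive factor, fell (−0.80, SE 0.18, adjusted *P* = 0.0369) and *Map2k2*, an ERK kinase, rose (0.34, SE 0.08, adjusted *P* = 0.045). Of the 12 heat shock genes, *Dnajb1* fell with GFP (−0.56, SE 0.08, adjusted *P* = 0.0118) and with ctrl sh (−0.47, SE 0.08, adjusted *P* = 0.0156), where *Hspb1* (−0.50, SE 0.12, adjusted *P* = 0.0471) and *Hsph1* (−0.37, SE 0.08, adjusted *P* = 0.0351) fell too. The median log2FC of the heat shock genes was −0.09 and −0.21.

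Other cell types also differed between uninjected and injected libraries. The summed level of the 8 RPE markers was 2391 to 7229 CPM in uninjected, 230.1 to 374 CPM in GFP, 204 to 312 CPM in nSREBP2, 1532 to 3427 CPM in ctrl sh, 1199 to 2018 CPM in *Lrp2* sh1 and 293 to 624 CPM in *Lrp2* sh2 libraries. The sums of the 10 genes were 2559 to 4907 CPM with GFP and 2939 to 4764 CPM with ctrl sh. Between these 2 groups the summed RPE markers did not overlap. Singly, *Ttr*, *Lrat*, *Rgr* and *Otx2* did not overlap either, but *Rpe65*, *Rlbp1*, *Best1* and *Rdh5* did. Over the 18 libraries, the median *r* with *Egr1* was 0.57 for pericyte and smooth muscle, 0.55 for blood, 0.53 for RPE and 0.51 for endothelium markers. It was −0.47 for fibroblast, −0.28 for rod and −0.18 to 0.08 for the remaining lists of markers. Relative to group means it was −0.54 for RPE and 0.63 for rod markers. Of the RPE markers, 6 fell with GFP and none with ctrl sh (edgeR, 6 with an unadjusted *P* under 0.05), beside 1.82% and 3.37% of all genes that were lower. The 8 fibroblast markers summed to 18351 to 30016 CPM in uninjected and 33164 to 86388 CPM in injected libraries. This sum was opposite in direction to that of the immediate early genes, and *Col1a1*, *Col1a2* and *Col3a1* made up most of it. For 3 of the 8 markers all uninjected libraries were below all injected ones (4.54% of all genes). *Pdgfra* had means of 405 CPM in uninjected, 356 CPM in GFP, 336 CPM in ctrl sh and 493 CPM in nSREBP2 libraries. The 14 rod markers summed to 39.5 to 53.1 CPM in uninjected libraries, and within GFP to 44.1, 126 and 341 CPM in replicates 1 to 3, the order in which *Fos*, *Egr1* and the sum of the 10 genes stood. The part of cell content in the levels of the immediate early genes was not tested.

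**Figure D4:**
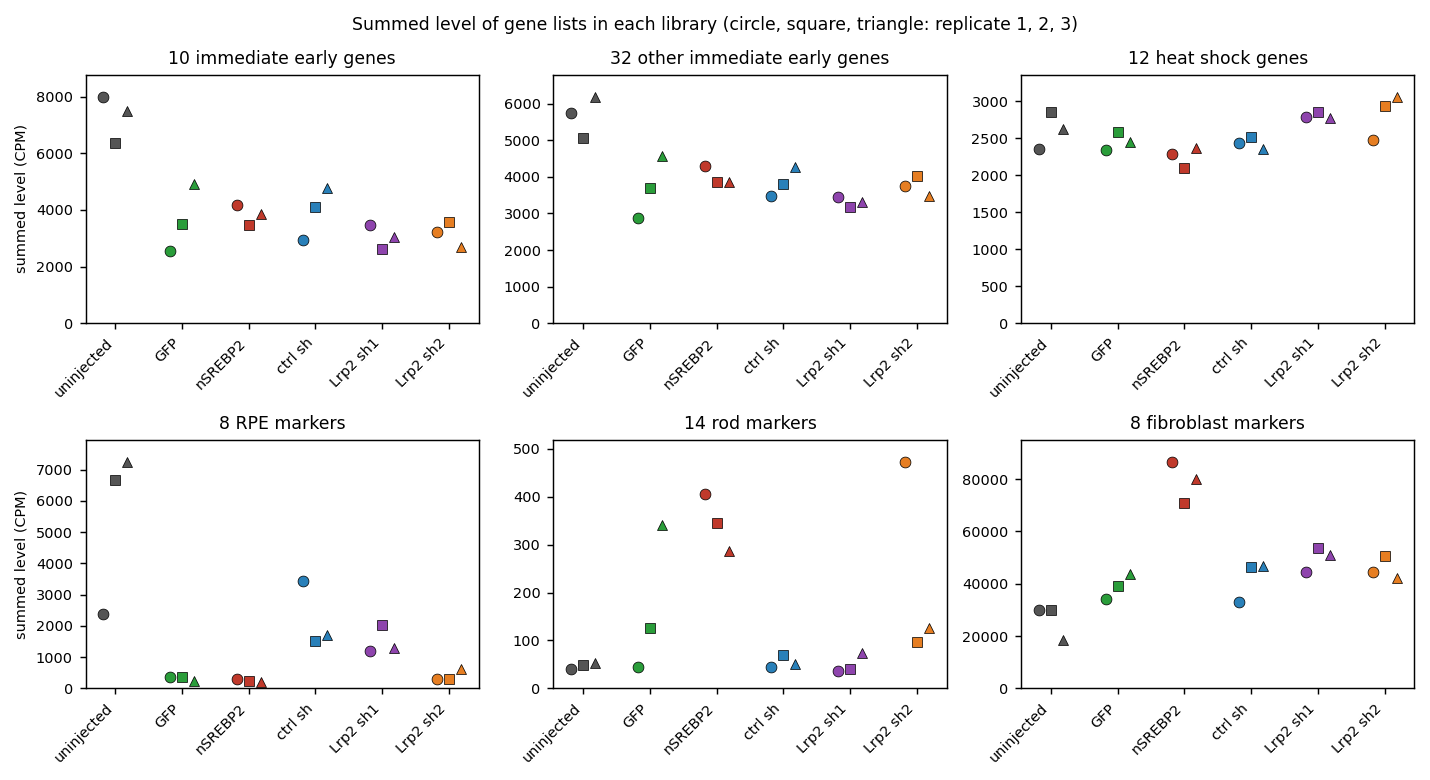
Summed CPM (vertical axes, linear from 0) of 6 gene lists in the 6 groups (horizontal axes). Each symbol is a library (circle, square and triangle for replicates 1, 2 and 3). Both lists of immediate early genes are highest in uninjected libraries, heat shock genes overlap between groups, and RPE, rod and fibroblast markers have different orders of the groups.

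The effect of nSREBP2 was examined against GFP. The 10 genes showed no common direction: 7 had a positive and 3 a negative log2FC, from −0.29 (*Nr4a1*, SE 0.19) to 0.46 (*Atf3*, SE 0.18), with a median of 0.12 beside −0.02 for all genes tested. That of *Egr1* was −0.18 (SE 0.25) and that of *Fos* 0.28 (SE 0.19). None of the 10 passed the edgeR test, while 12.6% of all genes were higher and 8.47% lower, and none had groups that did not overlap (37.5% of all genes). For 1 of the 10 the unadjusted *P* was under 0.05 (33.3% of all genes), and DESeq2 called 1 (15.9%). The count rested on GFP replicate 3: without it, 5 genes passed and were higher with nSREBP2, in a fit whose share of all genes is not given. There the log2FC of *Egr2* went from 0.29 to 0.89, that of *Junb* from 0.14 to 0.58 and that of *Egr1* from −0.18 to 0.22.

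Of the other immediate early genes, 5 of 30 rose with nSREBP2 and none fell. Of all genes, 12.6% were higher and 8.47% lower in this fit, so the 5 are not read as a result about the list. They were the growth regulator *Myc* (log2FC 1.13, SE 0.20, adjusted *P* = 0.00309, edgeR), *Plk3* (0.95, SE 0.13, adjusted *P* = 0.000932), *Maff* (0.85, SE 0.20, adjusted *P* = 0.0151), *Nfkbiz* (0.52, SE 0.16, adjusted *P* = 0.0459) and *Klf6* (0.35, SE 0.11, adjusted *P* = 0.0451). Of the ERK targets, 5 of 13 rose and none fell, with a median log2FC of 0.35: the ETS factor genes *Etv4* (1.11, SE 0.13, adjusted *P* = 0.000278), *Etv5* (0.60, SE 0.09, adjusted *P* = 0.00126) and *Etv1* (0.32, SE 0.08, adjusted *P* = 0.0255), and the inhibitors *Spry1* (0.89, SE 0.13, adjusted *P* = 0.00127) and *Spry2* (0.52, SE 0.14, adjusted *P* = 0.0253). Among the upstream regulators and partners, *Batf3* rose (1.13, SE 0.29, adjusted *P* = 0.0223) and *Mrtfb*, a coactivator of SRF, fell (−0.23, SE 0.07, adjusted *P* = 0.0391). Of the 12 heat shock genes 3 fell and none rose. These were the inducible HSP70 genes *Hspa1b* (−1.24, SE 0.27, adjusted *P* = 0.00909) and *Hspa1a* (−1.16, SE 0.21, adjusted *P* = 0.00409), near-identical copies between which reads can be divided, and *Hsp90aa1* (−0.32, SE 0.09, adjusted *P* = 0.0296).

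Beside these differences, all 9 macrophage markers and all 8 fibroblast markers rose with nSREBP2, 6 of 10 endothelium markers and 3 of 6 pericyte and smooth muscle markers fell, and of the RPE markers 2 rose and 3 fell. Of all genes, 12.6% were higher and 8.47% lower. The macrophage markers summed to 886 to 1061 CPM against 346 to 397 CPM with GFP, and the fibroblast markers to 71047 to 86388 CPM against 34377 to 43732 CPM. The rod markers summed to 287 to 405 CPM, against the 44.1 to 341 CPM of GFP, and the endothelium markers to 2124 to 2377 CPM against 2561 to 3243 CPM. All 3 nSREBP2 libraries had Y-linked transcripts and no GFP library had, so sex and nSREBP2 cannot be told apart within this comparison. When all 18 libraries were fitted with sex as a term, none of the other immediate early genes passed in edgeR (5 with an unadjusted *P* under 0.05, beside 23.8% of all genes).

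The effect of the *Lrp2* hairpins was examined against the same ctrl sh libraries. With *Lrp2* sh1, 9 of the 10 genes had a negative log2FC, from −0.81 (*Fosb*, SE 0.25) to 0.07 (*Atf3*, SE 0.12), with a median of −0.27 beside −0.01 for all genes tested. That of *Egr1* was −0.37 (SE 0.14). None passed the edgeR test, while 5.33% of all genes did, and *Fosl2* was the 1 gene whose groups did not overlap, lower with *Lrp2* sh1 (12.3% of all genes). For 4 of the 10 the unadjusted *P* was under 0.05 (19.7% of all genes), and DESeq2 called 1 (6.63%). With *Lrp2* sh2, 6 had a negative and 4 a positive log2FC, from −0.75 (*Fosb*, SE 0.27) to 0.37 (*Atf3*, SE 0.13). *Egr1* (−0.61, SE 0.15) and *Nr4a1* (−0.41, SE 0.12) passed and were lower, which is 2 of 10 beside 9.48% of all genes that were lower and 18.1% in both directions. Their groups did not overlap (19.6% of all genes, lower), and neither did those of *Fosl2* and *Atf3*, which were above ctrl sh (17.2%). At the threshold of the study none of the 10 genes passed with nSREBP2 (6.67% of all genes), *Lrp2* sh1 (0.994%), *Lrp2* sh2 (4.76%) or between the hairpins (5.13%). With either hairpin, *Fosb* had the most negative log2FC and did not pass, and its 3 ctrl sh libraries ranged from 373 to 850.04 CPM. Without ctrl sh replicate 1, in which 8 of the 10 genes were lowest, 3 genes passed with *Lrp2* sh1 and 5 with *Lrp2* sh2. Without any other library of the *Lrp2* sh2 comparison, 1 gene passed. The share of all genes is not given for the fits without ctrl sh replicate 1. With *Lrp2* sh2 it was 10.8% without ctrl sh replicate 3. *Lrp2* sh2 replicates 2 and 3 had Y-linked transcripts and no ctrl sh library had. In the fit of all 18 libraries 1 gene passed with *Lrp2* sh2, and with sex as a term or with the replicate block none did in edgeR (3 and 5 with an unadjusted *P* under 0.05, beside 25.6% and 29.5% of all genes).

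Of the other immediate early genes, 3 of 30 fell with *Lrp2* sh1: the prostaglandin synthase gene *Ptgs2* (log2FC −0.86, SE 0.17, adjusted *P* = 0.0186, edgeR), *Cebpd* (−0.65, SE 0.15, adjusted *P* = 0.0388) and *Klf2* (−0.30, SE 0.07, adjusted *P* = 0.0394). With *Lrp2* sh2, *Klf2*, a flow-responsive factor of endothelium (−0.47, SE 0.10, adjusted *P* = 0.0131), and *Dusp1* (−0.34, SE 0.10, adjusted *P* = 0.0481) fell, and *Ccn1*, a matricellular target of YAP and SRF (0.33, SE 0.09, adjusted *P* = 0.026), rose. *Klf2* was thus the gene of this list that passed with both hairpins. Without ctrl sh replicate 1, 9 passed with *Lrp2* sh1, in a fit whose share of all genes is not given. With any *Lrp2* sh1 library left out, in the fit of all 18 libraries and with sex as a term none did in edgeR (6 to 13 with an unadjusted *P* under 0.05). With *Lrp2* sh2, 1 passed in the fit of all 18 libraries, and with sex as a term none (3 with an unadjusted *P* under 0.05). Of the ERK targets, *Dusp4* fell (−1.10, SE 0.27, adjusted *P* = 0.021) and *Etv4* (0.86, SE 0.18, adjusted *P* = 0.011) and *Spred3* (0.44, SE 0.13, adjusted *P* = 0.0463) rose with *Lrp2* sh2, and none passed with *Lrp2* sh1 (3 with an unadjusted *P* under 0.05). Of the 12 heat shock genes, 2 rose with each hairpin and none fell. Of all genes, 5.33% passed with *Lrp2* sh1 and 18.1% with *Lrp2* sh2. The heat shock genes were *Hspd1* (0.34, SE 0.06, adjusted *P* = 0.0133) and *Hspa8* (0.27, SE 0.06, adjusted *P* = 0.0307) with *Lrp2* sh1, and *Hsph1* (0.50, SE 0.14, adjusted *P* = 0.042) and *Hsp90aa1* (0.44, SE 0.11, adjusted *P* = 0.0192) with *Lrp2* sh2. No heat shock gene passed with both: *Hspd1* and *Hspa8* had log2FCs of 0.04 and 0.07 with *Lrp2* sh2, and *Hsph1* and *Hsp90aa1* had 0.21 and 0.18 with *Lrp2* sh1. The upstream regulators *Batf3* (1.37, SE 0.37, adjusted *P* = 0.0296) and *Map2k2* (−0.30, SE 0.07, adjusted *P* = 0.0134) passed with *Lrp2* sh2.

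Cell type markers moved with these differences. With *Lrp2* sh2 against ctrl sh, 8 of 10 endothelium markers, 5 of 5 blood markers and 4 of 8 RPE markers fell, and 12 of 14 rod markers, 3 of 8 fibroblast markers and 2 of 9 macrophage markers rose. Of all genes, 9.48% were lower and 18.1% passed in both directions. The endothelium markers summed to 1864 to 2055 CPM with *Lrp2* sh2 against 2729 to 2844 CPM with ctrl sh. The blood markers summed to 351 to 440.5 CPM against 638 to 805 CPM, and the rod markers to 97.5 to 471 CPM against 45.7 to 68.8 CPM. With *Lrp2* sh1 against ctrl sh, 2 of 6 pericyte and smooth muscle markers, 1 of 5 blood markers and 1 of 9 macrophage markers fell, and no RPE, rod, endothelium or fibroblast marker passed in edgeR (2, 0, 1 and 3 with an unadjusted *P* under 0.05). In that fit 5.33% of all genes passed in both directions. The part of these cells in the levels of the immediate early genes was not tested.

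The 2 hairpins were compared directly. *Fosl2* passed and was higher with *Lrp2* sh2, at 329 ± 18.7 CPM (SD, n = 3) against 221 ± 15.6 CPM (SD, n = 3), a log2FC of 0.58 (SE 0.07), which is 1 of 10 genes beside 10.2% of all genes that were higher and 22.4% in both directions. It was also the 1 gene whose groups did not overlap (18.2% of all genes, higher). *Fosl2* did not pass in the fit of all 18 libraries, nor with sex as a term, where its log2FC was 0.49 and 14.1% of all genes passed. The other 9 genes had a log2FC between −0.24 (*Egr1*, SE 0.11) and 0.44 (*Egr2*, SE 0.20). Of the other immediate early genes 10 of 30 were higher with *Lrp2* sh2 and none lower, led by *Ptgs2* (0.97, SE 0.17, adjusted *P* = 0.00292, edgeR) and *Ier3*, a stress-induced survival gene (0.62, SE 0.12, adjusted *P* = 0.00491). *Gadd45b* (0.58, SE 0.15, adjusted *P* = 0.0202), *Nfkbiz* (0.51, SE 0.14, adjusted *P* = 0.0275), *Ccn2* (0.48, SE 0.08, adjusted *P* = 0.00178) and *Csrnp1* (0.48, SE 0.11, adjusted *P* = 0.0129) were higher as well. In the fit of all 18 libraries 2 of these 30 genes passed, and with sex as a term 1. Among the ERK targets *Dusp4* (−1.30, SE 0.08, adjusted *P* = 3.52e-06), *Spry2* and *Etv5* were lower and *Spred3* higher. The upstream kinase genes *Map2k2* (−0.36, SE 0.06, adjusted *P* = 0.00195) and *Map2k1* (−0.33, SE 0.06, adjusted *P* = 0.00247) and *Atf1* were lower. The heat shock genes *Bag3* and *Hspd1* were lower and *Hsp90aa1* was higher. In the same comparison 12 of 14 rod and 6 of 9 macrophage markers were higher and 9 of 10 endothelium and 6 of 8 RPE markers lower with *Lrp2* sh2, and *Lrp2* sh2 replicates 2 and 3, but no *Lrp2* sh1 library, had Y-linked transcripts. The part of these cell types in the differences was not tested.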

How the data were processed

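RNA from 18 mice was analysed in 6 groups of 3 libraries, grouped by the sample labels, with 1 mouse per library. The authors aligned reads to GRCm38 and counted per gene with STAR. Their deposited table holds unnormalized counts in whole numbers. Annotation and use of strand are not given in the sources used here. Reads shared by near-identical genes may be missing or divided.

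Depth was 8921885 to 13696934 counts per library, and 16093 genes had no count. Comparisons used the 2 groups concerned in edgeR 4.0.16 under R 4.3.3, with filterByExpr, TMM scaling and the quasi-likelihood test (glmQLFit, glmQLFTest). *P*-values were adjusted over all genes tested by the method of Benjamini and Hochberg. They judge a difference between groups against the spread between these mice. The SE is the log2FC divided by the square root of F. CPM were scaled by TMM across the 18 libraries. In simulated counts every gene was given the median dispersion, and 200 genes were changed 2-fold or more. The lowest number recovered in a comparison was 193 (GFP versus uninjected, 17559 genes). That number does not hold for genes with a wider spread between replicates, such as *Egr1* with GFP (785 ± 347 CPM, SD, n = 3). Replicates of a group differed by more than sampling noise.

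The members and lists were chosen with earlier results of these data known. Named in the text were all members, up to 6 genes of each list past the test by largest change, the 6 genes most like *Egr1* by either measure, the manipulated genes and markers. Replicate numbers did not pair samples (correlation of deviations −0.26 to 0.32). The study used DESeq2. Alternatives here were DESeq2 1.42.0, edgeR with the size factors of DESeq2, dropping the filter, a minimum of 10 counts per library, a joint fit of the 18 libraries without and with sex (Y-linked genes above 10 CPM), the replicate block, the threshold of the study and leaving out each library. Positions and overlaps are from GENCODE M21, and sequences from RefSeq.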

Additional observations from a re-analysis of the deposited data

Results flagged for a closer look

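The 2 *Lrp2* hairpins, which target the same gene, differed from each other in *Fosl2* among the 10 genes, by a log2FC of 0.58 (SE 0.07) for *Lrp2* sh2 over *Lrp2* sh1. The direct comparison also separated them in *Ptgs2* (0.97, adjusted *P* = 0.00292, edgeR), *Ier3* (0.62, adjusted *P* = 0.00491), *Gadd45b* (0.58, adjusted *P* = 0.0202), *Nfkbiz* (0.51, adjusted *P* = 0.0275), *Ccn2* (0.48, adjusted *P* = 0.00178), *Csrnp1* (0.48, adjusted *P* = 0.0129) and *Cebpd* (0.43, adjusted *P* = 0.0313). It did so, with a smaller log2FC, in *Ccn1* (0.30, adjusted *P* = 0.0054), *Trib1* (0.30, adjusted *P* = 0.00763) and *Sik1* (0.27, adjusted *P* = 0.0285). All 11 were higher with *Lrp2* sh2. In the fit of all 18 libraries *Fosl2* did not pass and 2 of the other immediate early genes did, and with sex as a term *Fosl2* did not pass and 1 did. Between these groups 12 of 14 rod markers were higher and 9 of 10 endothelium markers lower with *Lrp2* sh2, and *Lrp2* sh2 replicates 2 and 3, but no *Lrp2* sh1 library, had Y-linked transcripts. Groups of 3 libraries were not searched for outlying samples.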

How the results depend on the processing

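No log2FC of the 10 genes that was past the test, and none against uninjected libraries, changed sign in any alternative run. Among the 481 values of the other comparisons that were not past it, 26 changed sign. *Egr2* moved by more than the SD between replicates on the log2 scale without GFP replicate 3 (0.89 with nSREBP2 against GFP, −1.64 with GFP against uninjected), as did *Fosl2* between the hairpins with sex as a term (0.49). The mean levels moved by less than their SD with the size factors of DESeq2.

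Counts of genes past the test moved more, and the cause was not tested. The share of all genes past the test also differed between these fits and is not given beside the counts below. For the 10 genes with nSREBP2 against GFP, 0 passed, but 1 with DESeq2 and 1 without the filter on low counts. With *Lrp2* sh1, 0 passed, but 1 with DESeq2 and 3 without the filter. With *Lrp2* sh2, 2 passed, but 3 with DESeq2, 5 without the filter, 1 in the fit of all 18 libraries, 0 with sex as a term and 0 at the threshold of the study. With GFP against uninjected, 5 passed, but 10 without the filter, 10 in the fit of all 18 libraries, 9 with sex as a term and 2 at the threshold of the study. With ctrl sh against uninjected, 7 passed, and 6 to 9 in these alternatives. Between the hairpins 1 passed, and 0 in the fit of all 18 libraries, with sex as a term and at the threshold of the study.

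For the other immediate early genes with nSREBP2, 5 passed, but 8 with DESeq2, 9 without the filter, 0 with sex as a term and 1 at the threshold of the study. With *Lrp2* sh1, 3 passed, but 7 with DESeq2, 7 without the filter, and 0 in the fit of all 18 libraries, with sex as a term and at the threshold of the study. With *Lrp2* sh2, 3 passed, but 1 in the fit of all 18 libraries, and 0 with sex as a term and at the threshold of the study. With GFP against uninjected, 6 passed, but 12 with DESeq2, 20 without the filter, 17 in the fit of all 18 libraries and 15 with sex as a term. With ctrl sh, 19 passed, but 9 at the threshold of the study. Between the hairpins 10 passed, but 2 in the fit of all 18 libraries, 1 with sex as a term and 0 at the threshold of the study.

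With the replicate block, although the numbers did not pair the samples, 0, 0, 0, 3, 4 and 2 of the 10 genes passed (nSREBP2 against GFP, *Lrp2* sh1 and *Lrp2* sh2 against ctrl sh, GFP and ctrl sh against uninjected, and *Lrp2* sh2 against *Lrp2* sh1), and 7, 2, 2, 12, 11 and 10 of the other immediate early genes. In the same order, leaving out each library gave 0 to 5, 0 to 3, 1 to 5, 0 to 9, 3 to 7 and 1 to 2 of the 10 genes, and 2 to 16, 0 to 9, 0 to 4, 0 to 18, 2 to 17 and 5 to 11 of the other genes. The levels of *Egr2* and *Atf3*, the lowest of the 10 genes per kilobase, rest on fewer reads than the rest.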
